A study of Mus musculus with 31 samples.

Results

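Natural killer (NK) cells are innate lymphocytes that kill tumour cells and infected cells. The data described here are the early response of CIS knockout NK cells to the cytokine TGFB1, measured as RNA in 4 libraries after 4 h with TGFB1 and in 4 libraries of unstimulated cells, 8 of the 31 libraries of the study. All autosomal genes that passed a filter on low counts were followed, 9752 of the 23986 autosomal genes in the count table. Of the 14234 autosomal genes that did not pass, 10011 had 0 counts in all 8 libraries. The cells were mouse NK cells labelled as knockout for CIS (CIS KO; gene Cish). The same 4 h comparison was used from wild type cells (WT, 4 unstimulated and 2 TGFB1 libraries) and from cells labelled as knockout for TGFBRII, the type II receptor for TGFB1 (TGFBRII KO, 3 and 3 libraries). The protocol names sorted NK cells taken directly from animals, with RNA of high integrity and a library kit that keeps the strand. The strain, age and organ, the way each gene was removed and in which cells, the amount of TGFB1 and any other cytokine in the medium are not stated in the labels. No cells labelled as held 4 h without TGFB1 were analysed here, and the labels give no time for the unstimulated cells. Each change may therefore include the time in culture. The labels number biological replicates but do not say whether they were separate animals, so p-values measure the spread between these libraries.

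TGF-β binds its type II receptor, which activates the type I receptor. The active receptor phosphorylates SMAD2 and SMAD3, and these join SMAD4 and act on genes in the nucleus, among them genes for inhibitors of the same pathway. In NK cells TGF-β is known for lowering effector functions and for features of tissue-resident lymphocytes. CIS, of the suppressors of cytokine signalling (SOCS), dampens JAK-STAT signals of interleukin 15, a cytokine NK cells need to survive and divide.

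Total counts ran from 392266 to 711659 in the unstimulated and from 442036 to 798891 in the TGFB1-treated CIS KO libraries, which is shallow for weakly expressed genes. On the first principal component, with 40.5% of the variance among the 8 libraries, the treated libraries were separate from the unstimulated ones. Spearman correlations over genes were 0.930 to 0.947 between libraries of different groups and 0.963 to 0.976 within a group. Of 10 NK markers, all but Itga2 were present in all 8 libraries. Itga2 was near the floor, at 1.86 to 3.93 CPM (counts scaled by library total and TMM factor) without and 0 to 6.18 CPM with TGFB1. The summed level of the 10 markers was 3441 to 5167 CPM without and 3328 to 4468 CPM with TGFB1. Of the markers of other cells, the following were at 0 in all 8 libraries: Foxp3, Cd8b1 and Cd5 of 12 T cell genes, 8 of 12 myeloid genes including Lyz2 and S100a8, 6 of 10 innate lymphoid cell (ILC2 and ILC3) genes including Il22 and Il13, 6 of 8 erythroid and platelet genes, and 5 of 9 stroma and epithelium genes including Col1a1 and Kdr. Others were read. Itgax was at 126 to 174 CPM over the 8 libraries, Cd14 at 19.1 to 32.1 CPM and Il1rl1 at 5.09 to 47.0 CPM. The stroma and epithelium list summed to 343 to 377 CPM without and 380 to 487 CPM with TGFB1, nearly all of it Pecam1 and Epcam. The part of these cells or genes in the results was not tested. The summed T cell list was at 591 to 714 CPM without and 643 to 666 CPM with TGFB1, and most of it was Cd28, Cd3g and Cd3d. Mitochondrial transcripts made up 0.589% to 0.862% of counts in the 8 libraries.

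Cish, the gene named in the genotype, was read at low levels in every CIS KO library. It stood at 27.6, 33.4, 21.6 and 18.0 CPM in the 4 unstimulated libraries and at 43.3, 35.7, 49.4 and 42.0 CPM at 4 h (Entrez 12700; mm10 chromosome 9, 107296659 to 107302784). The treated libraries were above the unstimulated ones without overlap. The log2 change was 0.81 ± 0.24 (standard error; adjusted p = 0.0172). The call was lost without 4 h replicate 3 (adjusted p = 0.0540) or unstimulated replicate 4 (0.124), and with the replicate number as a term (0.0874). WT unstimulated cells, for scale, held 158 ± 21.6 CPM (SD, n = 4). The deleted part of the gene is not given, so these counts do not check the deletion. Tgfbr2, the receptor gene, was at 296, 276, 283 and 240.0 CPM without and 318, 349, 334 and 376 CPM with TGFB1. Its 4 h libraries were all higher, but the change of 0.33 ± 0.12 did not pass the test (adjusted p = 0.0710).

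Of the 9752 autosomal genes, 781 (8.01%) were called higher and 623 (6.39%) lower at 4 h, together 1404 (14.4%). A gene was called at a Benjamini-Hochberg adjusted p under 0.05 in edgeR's quasi-likelihood test, adjusted over all 10275 genes tested. Changes are log2 fold changes ± standard error throughout. The median change of the genes called higher was 0.76, with 274 of them at 1 or more and 81 at 2 or more. The genes called lower had a median of -0.76, with 174 at -1 or below and 28 at -2 or below. The largest changes were therefore more often rises. Over all 9752 genes the median was 0.0004. The 4 h libraries lay wholly above the unstimulated ones in 1042 genes (10.7%) and wholly below in 861 (8.83%). That held for 700 of the 781 and 510 of the 623 called genes. With total counts as the only scaling, 656 genes were higher and 739 lower, so the balance of rises and falls rests on the scaling, while none of the 1404 called genes changed sign there.

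**Figure D1:**
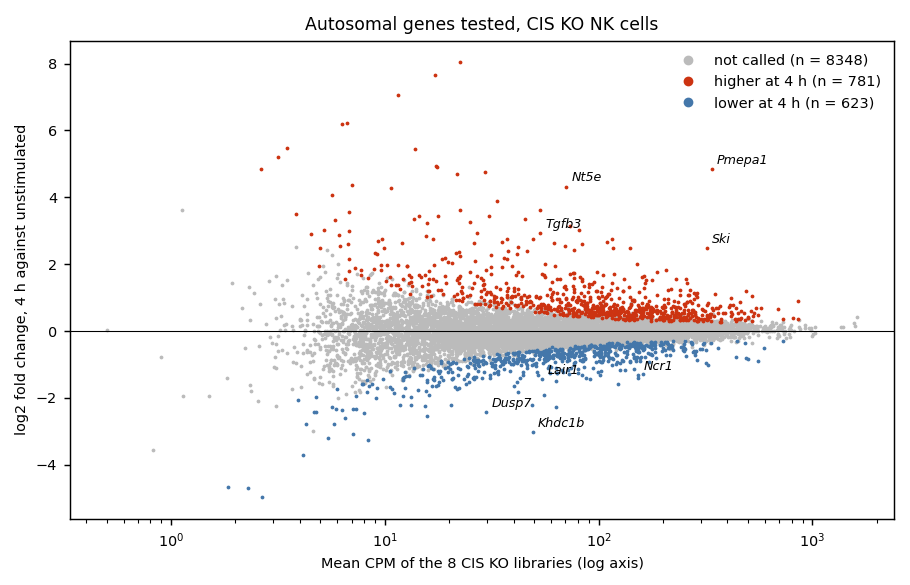
Each point is 1 of the 9752 autosomal genes tested in CIS KO cells, by its mean level over the 8 libraries (CPM, log axis) and its log2 change at 4 h of TGFB1. The 781 genes called higher (red) reach further from 0 than the 623 called lower (blue), and Pmepa1 and Ski stand out among the genes with a high level.

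Inhibitors of the TGF-β pathway itself rose. Of 13 genes in this list, 11 were tested, 8 rose and 0 fell (median log2 change 1.56). The called share was 72.7%, against 14.4% of all autosomal genes. Smad6 and Bambi did not pass the count filter. Pmepa1 encodes a membrane protein that keeps SMAD2 and SMAD3 from the receptor. Its level was 19.3, 18.6, 25.5 and 25.0 CPM in the unstimulated libraries and 569, 679.9, 699.9 and 667 CPM at 4 h (Entrez 65112; mm10 chromosome 2, 173224458 to 173276731). All 4 treated libraries were far above all 4 untreated ones, a change of 4.85 ± 0.25 (adjusted p = 1.5e-16). Ski, a co-repressor that binds SMAD complexes, went from 99.4, 89.0, 88.4 and 111 CPM to 490.3, 571, 581 and 531 CPM (Entrez 20481; mm10 chromosome 4, 155154075 to 155222535). The groups were again apart, and the rise was 2.47 ± 0.12 (adjusted p = 3.5e-17). Skil, the related co-repressor SnoN, was at 105, 122, 110.0 and 125 CPM before and 344, 368, 311 and 353 CPM after (Entrez 20482; mm10 chromosome 3, 31095058 to 31122923; 1.56 ± 0.12). It rose less than Ski, with no overlap.

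The inhibitory SMAD gene Smad7 was even among libraries, at 35.9, 33.4, 35.3 and 37.5 CPM without TGFB1 and 124, 105, 109 and 133 CPM with it. It rose by 1.72 ± 0.19 (adjusted p = 1.7e-08). Ldlrad4, another membrane protein that holds back SMAD activation, stood at 0, 1.86, 5.89 and 6.94 CPM and then at 72.6, 49.9, 65.9 and 64.3 CPM (3.88 ± 0.36). It was close to the detection limit before and clearly read in every library after. Spsb1, an adaptor that targets the type II receptor for degradation, had 2 counts over the 4 unstimulated libraries and 72 over the treated ones, a 36.6-fold ratio with a 95% interval of 9.77 to 308 that covers counting error only. Its fitted change of 4.95 ± 0.58 was 7.66 without unstimulated replicate 2, which held both counts. Tgif1, a SMAD co-repressor of the homeobox family, went from 52.5, 50.1, 55.0 and 58.3 CPM to 106, 95.1, 98.8 and 109 CPM (0.91 ± 0.12). Smurf2, a ubiquitin ligase for the receptors, went from 38.7, 74.2, 43.2 and 58.3 CPM to 99.3, 99.8, 94.7 and 81.6 CPM (0.78 ± 0.20). Both groups of libraries were apart for these genes as well, though unstimulated replicate 2 of Smurf2 came near the treated range. The other tested members did not pass the test: Smurf1 at 0.63 ± 0.27, Tgif2 at -0.51 ± 0.29 and the phosphatase Ppm1a at -0.03 ± 0.11.

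**Figure D2:**
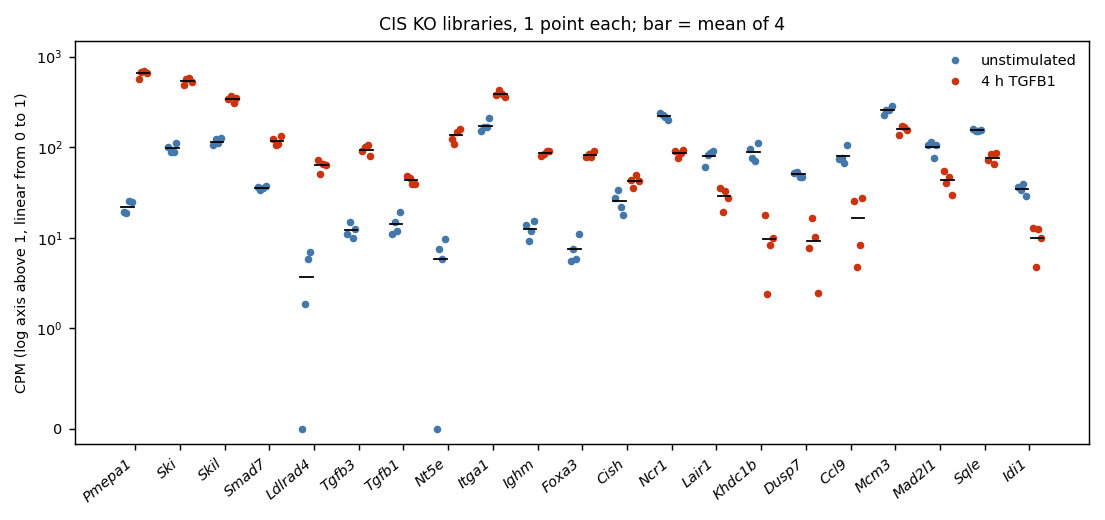
Levels of 21 genes in each CIS KO library (CPM, log axis above 1 and linear from 0 to 1), unstimulated in blue and 4 h TGFB1 in red, with a bar at the mean of 4 libraries. The groups do not overlap for any of the genes shown, and the 0 values of Ldlrad4 and Nt5e belong to unstimulated replicate 1.

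Among 24 ligands, receptors and SMADs, 15 were tested, 3 rose and 1 fell (26.7% called, against 14.4% of all autosomal genes; median 0.17). Both changed ligands rose. Tgfb3 was at 11.0, 14.8, 9.82 and 12.5 CPM in unstimulated cells and 90.4, 99.8, 107 and 79.1 CPM at 4 h (Entrez 21809; mm10 chromosome 12, 86056743 to 86079041). Every treated library was several times above every untreated one (2.93 ± 0.21, adjusted p = 3.0e-12). Tgfb1 itself went from 11.0, 14.8, 11.8 and 19.4 CPM to 48.4, 45.2, 39.1 and 39.5 CPM (1.54 ± 0.30), also without overlap. The activin receptor gene Acvr2a rose by 1.01 ± 0.21, and Nrros, which holds latent TGF-β at the surface of myeloid cells, changed by -0.50 ± 0.12. The receptor gene Tgfbr1 (-0.25 ± 0.19) and the SMAD genes Smad2 (-0.21 ± 0.15), Smad3 (-0.85 ± 0.38), Smad4 (0.17 ± 0.12), Smad1 (-0.02 ± 0.34) and Smad5 (-0.03 ± 0.15) did not pass the test. Neither did Furin (0.33 ± 0.16), the protease that cleaves the TGF-β precursor, Ltbp3 (0.10 ± 0.29), which binds latent TGF-β, Acvr1 (1.22 ± 0.60) or Tgfbr3 (2 counts before and 6 after). The call was lost for Nrros without 4 h replicate 1 (adjusted p = 0.0790).

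Genes known as TGF-β targets in other cells mostly rose: 12 of 16 were tested, 7 rose and 1, Runx1, fell (list median 0.69, Runx1 -0.89 ± 0.21). The called share was 66.7%, against 14.4% of all autosomal genes. The constant regions of immunoglobulin A and M led the rises. TGF-β is known to induce germline Igha transcripts in B cells. Igha was at 8.29, 0, 1.96 and 0 CPM without and 53.5, 61.8, 55.6 and 54.4 CPM with TGFB1 (Entrez 238447; mm10 chromosome 12, 113256204 to 113260236). It was at 0 in 2 unstimulated libraries and even across the treated ones (4.77 ± 0.51, adjusted p = 1.8e-08). Ighm went from 13.8, 9.28, 11.8 and 15.3 CPM to 80.2, 83.2, 90.6 and 91.4 CPM (2.74 ± 0.31). B cell markers did not accompany it: Cd79a, Ms4a1, Pax5, Ebf1, Cd22 and Fcer2a had 0 counts in all 8 libraries, and Cd79b was at most at 1.27 CPM. Reads of such gene families can be split between related genes in a way that cannot be traced here.

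The other known targets changed less. Bcl2l11, the pro-apoptotic protein BIM, was at 445, 447, 436 and 439.8 CPM and then 672, 723, 696 and 756 CPM (0.69 ± 0.10). The 4 untreated values were nearly equal, so a rise of this size was well outside their spread. Runx3, a transcription factor of NK cells and of resident lymphocytes, rose from 483, 378, 434 and 375 CPM to 568, 716, 655 and 754 CPM (0.69 ± 0.11). Cdkn2b, an inhibitor of cyclin-dependent kinases, rose by 0.81 ± 0.15, Klf10, a TGF-β-induced zinc finger gene, by 0.72 ± 0.16 and Id3, an inhibitor of DNA binding, by 1.45 ± 0.42. Igha, Id3 and Cdkn2b are not shown to need the receptor, since their changes did not differ by test from those of TGFBRII KO cells (differences of 0.60 ± 1.03, 0.41 ± 0.62 and 0.33 ± 0.23). Id3 lost its call without 4 h replicate 2 or unstimulated replicates 2 or 4 (adjusted p = 0.0563 to 0.0683).

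Genes of tissue residency rose more often than they fell: of 20 listed, 17 were tested, 9 rose and 0 fell (median 0.35). The called share was 52.9%, against 14.4% of all autosomal genes. Nt5e encodes CD73, the surface enzyme that makes adenosine. Its level was 0, 7.42, 5.89 and 9.71 CPM in unstimulated and 124, 109, 148 and 158 CPM in treated libraries (Entrez 23959; mm10 chromosome 9, 88327609 to 88372089). It was at 0 or low before and high in every library after (4.32 ± 0.27, adjusted p = 6.6e-14). Itga1, the integrin CD49a that binds collagen, went from 152, 165, 167 and 209 CPM to 376, 433, 385 and 356 CPM (Entrez 109700; mm10 chromosome 13, 114958079 to 115101964; 1.14 ± 0.13). Itgb7, a chain of gut-homing and epithelial integrins, went from 91.1, 102, 78.5 and 101 CPM to 197, 231, 208 and 225 CPM (1.18 ± 0.18). Both integrin genes rose to more than the highest untreated library in all 4 treated libraries. Itgae, the CD103 partner of Itgb7, was at 2.76, 7.42, 1.96 and 2.77 CPM and then 16.6, 9.51, 8.23 and 12.4 CPM (1.67 ± 0.58, adjusted p = 0.0478). Its level at 4 h was low and uneven, and unstimulated replicate 2 was close to the treated range. Itgae lost its call in 6 of the 8 fits that left out 1 library, without 4 h replicates 1, 2 or 4 or unstimulated replicates 1, 3 or 4 (adjusted p = 0.0563 to 0.194) and with DESeq2 (0.0682), total counts alone as scaling (0.0563) or total count as a covariate (0.0502). Rgs2, a brake on G protein signals, rose by 1.55 ± 0.14 and Ahr, the aryl hydrocarbon receptor, by 1.66 ± 0.30.

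Of 19 genes of circulation and homing, 13 were tested, 1 rose and 3 fell (median -0.08). The called share was 30.8%, against 14.4% of all autosomal genes. The chemokine receptor gene Cxcr4 had 3 counts before and 26 after, an 8.81-fold ratio (95% interval 2.70 to 45.5). Ccr2 fell from 724, 653, 750.1 and 677 CPM to 486, 452, 517 and 512 CPM (-0.51 ± 0.10). This chemokine receptor gene was lower in all treated libraries. Klrg1, a receptor of mature NK cells, changed by -0.43 ± 0.10. A fall in bulk RNA can come from fewer cells of a type or from less RNA per cell, and these cannot be told apart here.

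NK transcription factors rose more often than they fell, with 21 of 25 tested, 6 higher and 1 lower (median 0.30). The called share was 33.3%, against 14.4% of all autosomal genes. Nfil3, needed early in NK development, went from 124, 108, 134 and 119 CPM to 173, 181, 189 and 203 CPM (0.62 ± 0.12). Foxo1, a factor of quiescence and homing, rose by 0.58 ± 0.11, Ikzf3, the Ikaros family member Aiolos, by 0.54 ± 0.10 and Gata3 by 0.60 ± 0.14. The fall was that of Tox, which went from 24.9, 57.5, 35.3 and 69.4 CPM to 15.3, 26.1, 28.8 and 14.8 CPM (-1.27 ± 0.33), with unstimulated replicate 1 inside the treated range. Tox lost its call without 4 h replicate 1 or unstimulated replicate 4 (adjusted p = 0.0515 to 0.0869). Eomes and Tbx21, the factors that define mature NK cells, did not pass the test (0.20 ± 0.10 and -0.17 ± 0.14). Their libraries overlapped.

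Activating receptors and their adaptors split, with 21 of 24 tested, 2 higher and 5 lower (median 0.01). This was 33.3% called, against 14.4% of all autosomal genes. Without unstimulated replicate 4 the falls numbered 2. Ncr1 encodes NKp46, the natural cytotoxicity receptor that marks NK cells. It went from 238, 226, 214 and 201 CPM to 90.4, 76.1, 86.5 and 93.9 CPM (Entrez 17086; mm10 chromosome 7, 4337715 to 4345184). Every treated library was below every untreated one, a change of -1.32 ± 0.12 (adjusted p = 5.1e-10). Crtam, an adhesion receptor of activated lymphocytes, changed by -0.81 ± 0.21 (call lost without unstimulated replicate 4, adjusted p = 0.0594), and Cd27, a receptor of less mature NK cells, rose by 0.74 ± 0.18. Of the inhibitory receptors, 14 of 18 were tested, 1 rose and 2 fell (21.4% called). The collagen receptor gene Lair1 went from 60.8, 81.6, 86.4 and 90.2 CPM to 35.7, 19.0, 32.9 and 27.2 CPM (Entrez 52855; mm10 chromosome 7, 4007073 to 4073567), with every treated library lower (-1.44 ± 0.20). Klrb1b, the inhibitory receptor NKR-P1B, rose from 309, 341, 334 and 280.2 CPM to 422, 464, 467 and 504 CPM (0.55 ± 0.10).

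Of 19 cytotoxic granule genes, 18 were tested, 1 rose and 3 fell (22.2% called, against 14.4% of all autosomal genes; median -0.005). With DESeq2 0 were higher and 1 was lower. Serpinb9, which protects killer cells from their own granzyme B, fell from 558, 575, 611 and 474 CPM to 313, 359, 290.3 and 329 CPM (-0.78 ± 0.12). It was the only member of this list past the test with margin, since Gzmm rested on 18 counts before and 3 after (ratio 5.90, 95% interval 1.72 to 31.3) and Serpinb6b (-0.29 ± 0.10) and Rab27a (0.42 ± 0.14) lost their calls with most libraries left out. The call was lost for Serpinb6b without 4 h replicates 1, 2, 3 or 4 or unstimulated replicates 1, 2 or 3 (adjusted p = 0.0598 to 0.217) and with DESeq2 (0.0575), no count filter (0.167) or only the libraries compared (0.0738), and for Rab27a without 4 h replicates 1, 2 or 3 or unstimulated replicates 1, 2 or 4 (adjusted p = 0.0696 to 0.167) and with DESeq2 (0.0827), RLE factors (0.0519) or total counts alone as scaling (0.0761). That of Gzmm was lost in 7 of 8 such fits, all but the fit without unstimulated replicate 1 (adjusted p = 0.0553 to 0.144), and with DESeq2 (0.0759). Serpinb6b also lost its call with the replicate number as a term (adjusted p = 0.207). The perforin gene Prf1 was at -0.26 ± 0.16 (adjusted p = 0.313). Among cytokines and chemokines, 16 of 20 were tested, 2 rose and 1 fell (18.8% called, near the 14.4% of all autosomal genes). Ifng, the main effector cytokine of NK cells, was higher at 4 h, from 96.7, 85.3, 106 and 99.9 CPM to 143, 157, 159 and 173 CPM (0.68 ± 0.14, adjusted p = 5.0e-04). Flt3l, a growth factor for dendritic cells, rose by 0.89 ± 0.18. The chemokine gene Ccl9 fell from 74.6, 76.1, 66.8 and 105 CPM to 25.5, 4.75, 8.23 and 27.2 CPM (Entrez 20308; mm10 chromosome 11, 83572917 to 83578636; -2.23 ± 0.29). Its treated libraries were uneven, replicates 2 and 3 being the lowest, but all were below the untreated ones.

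Of 15 tested SOCS and STAT5 target genes, the pathway that CIS restrains, 2 rose, Cish itself and Bcl2, and 0 fell (median 0.12). This was 13.3% called, near the 14.4% of all autosomal genes. At an unadjusted p under 0.05 there were 4 higher and 1 lower, and DESeq2 called 2 and 0. Bcl2, the survival protein, went from 309, 338, 371 and 319 CPM to 535, 563, 539 and 539 CPM (0.70 ± 0.09, adjusted p = 9.5e-07). Its treated values were nearly equal. Socs1 (0.52 ± 0.21), Socs2 (0.17 ± 0.16), Pim1 (-0.14 ± 0.11), Pim3 (-0.31 ± 0.15), Mcl1 (0.14 ± 0.12), Ccnd2 (0.12 ± 0.12) and Myc (-0.01 ± 0.43) did not pass the test. Socs1 passed in some settings, with an adjusted p = 0.00228 when only the 8 CIS KO libraries were fitted. Cdk6, Ccnd3, Osm, Socs4, Socs5 and Socs7 did not pass either, with changes from -0.60 to 0.69. Cytokine receptors and JAK-STAT genes (22 tested) had 2 rises and 2 falls, 18.2% called and near the share of all autosomal genes. Il12rb2, a chain of the interleukin 12 receptor, rose by 1.20 ± 0.28, while the interferon receptor gene Ifnar1 (-0.78 ± 0.19) and the interleukin 18 receptor gene Il18r1 (-0.55 ± 0.19) fell. Il18r1 lost its call without 4 h replicates 1, 2 or 4 or unstimulated replicates 1, 2 or 3 (adjusted p = 0.0619 to 0.167) and with DESeq2 (0.0522).

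Of 16 immediate early genes tested, 4 rose and 0 fell (median 0.25, with 25.0% called against 14.4% of all autosomal genes). Jun, a subunit of AP-1, went from 262, 215, 228 and 248 CPM to 401, 387, 422 and 408 CPM (0.77 ± 0.12). The zinc finger genes Egr2 and Egr1 rose by 0.97 ± 0.21 and 0.54 ± 0.15, and the stress factor Atf3 by 1.98 ± 0.53. Without the count filter 7 of this list rose. Of 11 MAP kinase feedback genes, 2 rose and 1 fell (27.3% called), and 2 phosphatases of the DUSP family moved in opposite directions. Dusp4 went from 2.76, 3.71, 1.96 and 1.39 CPM to 16.6, 21.4, 14.4 and 12.4 CPM (2.70 ± 0.64), and Dusp7 from 52.5, 53.8, 47.1 and 47.2 CPM to 7.64, 16.6, 10.3 and 2.47 CPM (Entrez 235584; mm10 chromosome 9, 106368560 to 106375724; -2.43 ± 0.29). Neither overlapped between groups. NF-κB and TNF genes had 0 of 20 called by edgeR and by DESeq2 (median -0.06), and 2 were higher and 0 lower at an unadjusted p under 0.05. Atf3 lost its call without unstimulated replicate 4 (adjusted p = 0.0636).

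Cell cycle genes fell. The S phase list, genes that copy DNA and supply its building blocks, had 25 of 28 genes tested, with 0 higher and 17 lower (median -0.73), against 6.39% called lower over all autosomal genes. All 25 had a change below 0. Without unstimulated replicate 4, 11 were called lower. The mitosis list, genes of cyclin B kinase, spindle and checkpoint, had 24 of 24 tested, with 0 higher and 18 lower (median -0.77), again with all changes below 0. E2F factors are known to drive S phase genes through their namesake site, and the cell cycle homology region, CHR, is known from promoters of mitotic genes. Both were searched by letters, on both strands, in windows of 300 bases around gene starts (250 before to 50 after) from RefSeq, GRCm38.p6. The windows of 7 cell cycle genes that were called lower show the letters found, in capitals, with up to 16 bases on each side. The E2F letters TTTNNCGC, or their reverse complement, are in capitals in the first 3, and the CHR letters TTTGAA in the other 4. Capitals mark 1 match per window. Mcm5 holds another E2F match, on the opposite strand, that overlaps the marked one. No motif searched contains another.

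Mcm5 (chr8:75109340-75109379, plus strand): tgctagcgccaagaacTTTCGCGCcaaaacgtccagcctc
Mcm7 (chr5:138172025-138172064, minus strand): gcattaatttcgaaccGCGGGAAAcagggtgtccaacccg
Cdc6 (chr11:98907997-98908036, plus strand): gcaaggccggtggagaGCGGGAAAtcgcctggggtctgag
Ccnb2 (chr9:70421700-70421737, minus strand): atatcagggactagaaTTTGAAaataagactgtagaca
Cdk1 (chr10:69352913-69352943, minus strand): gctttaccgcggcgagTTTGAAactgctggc
Cdc20 (chr4:118437344-118437377, minus strand): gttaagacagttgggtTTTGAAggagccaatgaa
Prc1 (chr7:80294430-80294467, plus strand): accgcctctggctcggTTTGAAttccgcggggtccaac

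The E2F letters were in 9 of 20 tested S phase genes with a window (45.0%) and in 10.4% of the 7757 tested autosomal genes with one. The CHR letters were in 14 of 20 mitosis genes (70.0%), against 14.2% of the tested genes. Among all windows of called genes, CHR letters were in 20.7% of the 492 lower and 14.8% of the 607 higher genes, and E2F letters in 14.6% and 9.88%. CCAAT, the letters bound by NF-Y, were in 17 of 20 mitosis genes (85.0%), 13 of 20 S phase genes (65.0%) and 14 of 15 cholesterol genes (93.3%), against 43.0% of tested genes. These are matches of letters, not measured binding.

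Mcm3, a subunit of the replicative helicase, was at 226, 258, 257 and 286 CPM before and 138, 171, 167 and 156 CPM after (-0.73 ± 0.12). Its groups did not overlap. Rrm2, a subunit of ribonucleotide reductase, changed by -1.32 ± 0.25 and Uhrf1, which guides maintenance of DNA methylation, by -1.10 ± 0.19. The S phase transcription factor gene E2f1 went from 155, 122, 108 and 193 CPM to 80.2, 83.2, 88.5 and 56.8 CPM (-0.91 ± 0.19). Of the genes whose windows are printed above, Cdc6, which loads the helicase, changed by -1.23 ± 0.30, Mcm7 by -0.69 ± 0.15 and Mcm5 by -0.44 ± 0.14. Cdk1, the kinase of mitosis, went from 224, 208, 196 and 207 CPM to 122, 126, 140.0 and 141 CPM (-0.66 ± 0.14), and its cyclin gene Ccnb2 from 124, 129.9, 118 and 159.5 CPM to 90.4, 64.2, 72.1 and 49.4 CPM (-0.90 ± 0.16). Both were lower in all treated libraries. Mad2l1, of the spindle checkpoint, fell from 105, 115, 76.6 and 107 CPM to 54.8, 40.4, 47.3 and 29.7 CPM (-1.17 ± 0.19), Cdc20, an activator of the anaphase-promoting complex, changed by -0.95 ± 0.17, Prc1, of the central spindle, by -0.64 ± 0.17, Aurka by -0.94 ± 0.15 and Plk1 by -0.77 ± 0.14. In the list of G1 regulators and MYC, 22 of 23 were tested, 3 higher and 1 lower. This was 18.2% called, near the 14.4% of all autosomal genes. The rises were those of Cdkn2b, Cdkn1b and Mxi1, and the changes were evenly split, 11 above and 11 below 0. Cdkn1b, the kinase inhibitor p27, went from 113, 111, 114 and 91.6 CPM to 171, 152, 198 and 161 CPM (0.69 ± 0.13), Mxi1, an antagonist of MYC, rose by 0.88 ± 0.22, and Cdk4, a G1 kinase, changed by -0.54 ± 0.15. With 1 library left out, calls were lost for Cdc6 without unstimulated replicate 4 (adjusted p = 0.0634); for Prc1 without unstimulated replicate 4 (adjusted p = 0.0768); for Mcm5 without 4 h replicates 1, 2 or 3 or unstimulated replicates 1, 2 or 4 (adjusted p = 0.0597 to 0.141) and with DESeq2 (0.0616).

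Genes of cholesterol synthesis and uptake fell as well, with 22 of 25 tested, 0 higher and 16 lower (median -0.74). Over all autosomal genes 6.39% were called lower. The cholesterol genes are known targets of SREBP2, which binds sterol regulatory elements. The element spelled TCACNCCAC was in 1 of 15 windows of this list and in 1.33% of tested genes, and the window of Hmgcs1, called lower, is shown with it in capitals.

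Hmgcs1 (chr13:119690198-119690238, plus strand): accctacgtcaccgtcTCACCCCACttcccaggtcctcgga

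Hmgcs1, the synthase before the rate-limiting step, went from 942, 655, 732 and 566 CPM to 359, 411, 331 and 437 CPM (Entrez 208715; mm10 chromosome 13, 119690351 to 119708260; -0.91 ± 0.13). It was lower in each treated library. Sqle, the squalene epoxidase, went from 160.2, 150.3, 151 and 154 CPM to 71.3, 83.2, 65.9 and 86.5 CPM (-1.02 ± 0.11), Hsd17b7 changed by -1.15 ± 0.15, Cyp51 by -0.82 ± 0.11 and Idi1 by -1.69 ± 0.30. The genes of fatty acid synthesis and of the liver X receptor (LXR) were called in both directions. Of these, 16 of 19 were tested, 3 higher and 2 lower (31.2% called against 14.4% of all autosomal genes, median -0.12). Abcg1, a cholesterol exporter and known LXR target, went up from 30.4, 44.5, 39.3 and 51.3 CPM to 132, 97.5, 144 and 126 CPM (Entrez 11307; mm10 chromosome 17, 31057694 to 31117984; 1.55 ± 0.17). Mylip, a ubiquitin ligase and known LXR target, rose by 0.59 ± 0.19 and Srebf1 by 0.73 ± 0.24, while Elovl6, which lengthens fatty acids, changed by -1.27 ± 0.23 and the desaturase Fads1 by -0.86 ± 0.27. With 1 library omitted, calls were lost for Mylip without 4 h replicates 1 or 3 or unstimulated replicates 2 or 4 (adjusted p = 0.104 to 0.125) and with DESeq2 (0.0545) or total counts alone as scaling (0.0518); for Srebf1 without 4 h replicates 1, 3 or 4 or unstimulated replicates 2 or 3 (adjusted p = 0.0664 to 0.104); for Fads1 without 4 h replicate 4 or unstimulated replicates 1 or 4 (adjusted p = 0.0764 to 0.23). Fads1 also lost its call with the replicate number as a term (adjusted p = 0.0867). Without 4 h replicate 3, or without unstimulated replicate 2, the higher genes of this list numbered 1.

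Amino acid response genes fell more often than they rose, with 21 of 23 tested, 1 higher and 6 lower (median -0.08). The called share was 33.3%, against 14.4% of all autosomal genes. Mthfd2, of the mitochondrial folate cycle, went from 359, 352, 324 and 311 CPM to 205, 245, 241 and 183 CPM (-0.62 ± 0.10). Chac1, which degrades glutathione, changed by -1.37 ± 0.27, Shmt1 by -1.04 ± 0.26 and the pseudokinase gene Trib3 by -0.89 ± 0.23, while Sesn2 rose by 1.24 ± 0.36. Ribosome biogenesis genes had 0 of 20 called by edgeR and by DESeq2 (median -0.22), with 1 higher and 6 lower at an unadjusted p under 0.05. Of 22 glycolysis and hypoxia genes, 2 rose and 2 fell (18.2% called, near the 14.4% of all autosomal genes). Vegfa, an angiogenic factor induced by low oxygen, rose by 1.24 ± 0.28 and Ankrd37 by 1.36 ± 0.28, while the glucose transporter gene Slc2a3 (-0.49 ± 0.12) and Hif1a (-0.43 ± 0.12) fell. Of 24 genes of oxidative phosphorylation (4.17% called), 0 were higher and 1, Ndufa4, was lower (-0.88 ± 0.23, list median -0.04). With 1 library left out, the call was lost for Sesn2 without 4 h replicate 1 or unstimulated replicate 2 (adjusted p = 0.0600 to 0.0636), and for Hif1a without 4 h replicate 3 (adjusted p = 0.0572).

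Called shares of 14.3% for interferon-stimulated genes and 15.4% for p53 targets were near the 14.4% of all autosomal genes, while cell death genes had 27.8% and actin and adhesion genes 22.2%. Rsad2, the antiviral protein viperin, went from 5.52, 5.57, 17.7 and 8.32 CPM to 62.4, 80.8, 53.5 and 64.3 CPM (Entrez 58185; mm10 chromosome 12, 26442743 to 26456452; 2.77 ± 0.31). It was among the 2 of 14 tested interferon-stimulated genes that were called, both higher, and 6 others did not pass the count filter. Of 18 cell death genes, 4 rose, among them Bcl2, Bcl2l11 and Bmf, and 1 fell. Bmf, a pro-apoptotic relative of BIM, went from 24.9, 51.9, 23.6 and 52.7 CPM to 115, 83.2, 92.6 and 106 CPM (1.31 ± 0.20). Pro- and anti-apoptotic members thus rose side by side. Of 13 p53 targets, 2 rose and 0 fell, with Trp53inp1 at 0.65 ± 0.15. Of 18 actin and adhesion genes, 3 rose and 1 fell, and without unstimulated replicate 4 there was 1 rise. Myh9, the non-muscle myosin heavy chain, went from 574, 577, 640.1 and 573 CPM to 1007, 1234, 1147 and 1073 CPM (Entrez 17886; mm10 chromosome 15, 77760585 to 77842175; 0.91 ± 0.12), and Vim, the filament protein vimentin, rose by 0.49 ± 0.13. Vim lost its call without unstimulated replicate 4 (adjusted p = 0.0649) and with the replicate number as a term (0.0694).

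**Figure D3:**
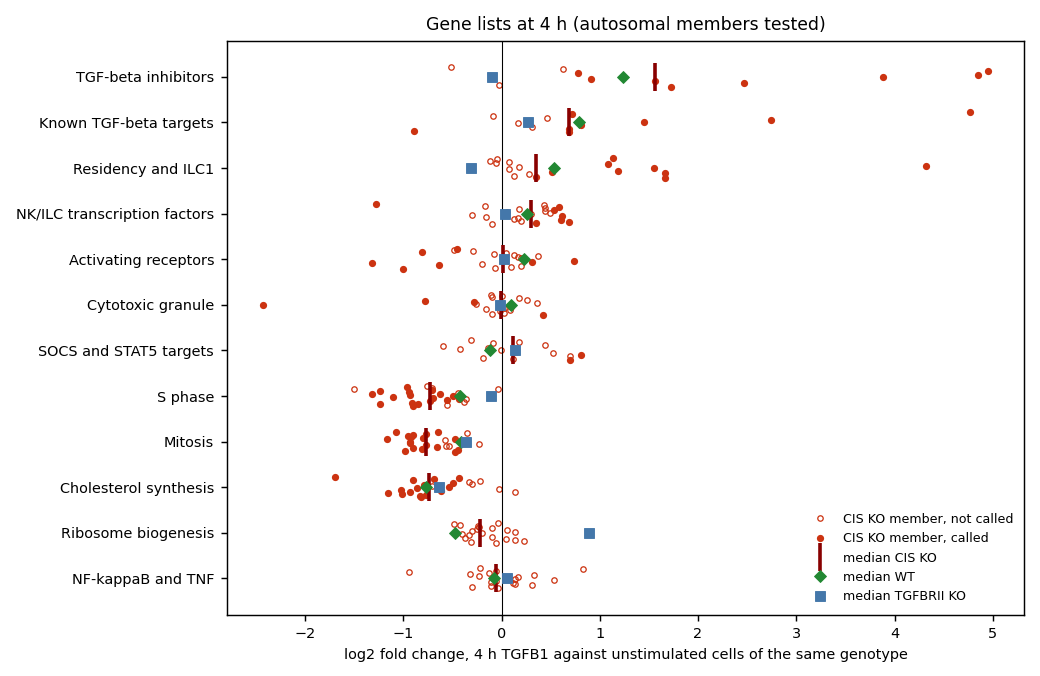
Log2 change at 4 h of TGFB1 for the tested members of 12 gene lists in CIS KO cells (circles, filled where called; the dark bar is their median), with the list's median in WT (green diamond) and TGFBRII KO cells (blue square). The S phase, mitosis and cholesterol circles lie almost wholly left of 0, and for ribosome biogenesis the TGFBRII KO median of 0.89 stands apart from the CIS KO median of -0.22.

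Several of the largest rises belonged to none of these lists. Pacsin1, which bends membranes in endocytosis, had 0 counts in all 4 unstimulated libraries and was at 40.8, 45.2, 63.8 and 29.7 CPM at 4 h (Entrez 23969; mm10 chromosome 17, 27655591 to 27711118). Against a floor of 3 counts over the group it was at least 31.9-fold higher. Tbc1d16, a Rab GTPase-activating protein, was at least 24.7-fold higher and Ncmap, a myelin-associated protein, at least 15.9-fold. Ptafr, the receptor for platelet-activating factor, and Fibcd1 were each at least 8.81-fold higher, and Pgf, Ccdc74a and Rnase6, also at 0 before, at least 5.42, 4.41 and 3.39-fold. For genes with 1 to 3 counts before, the ratio was 60.0 for Sec1 (95% interval 10.4 to 2409), 34.6 for Csgalnact1 (9.21 to 291), 28.1 for Dhrs3 (9.30 to 139), 27.5 for Ano1 (4.52 to 1124) and 22.9 for Cd40 (5.97 to 195). The intervals are wide because the untreated cells gave so few counts. Foxa3, a forkhead transcription factor, went from 5.52, 7.42, 5.89 and 11.1 CPM to 77.7, 83.2, 78.2 and 91.4 CPM (Entrez 15377; mm10 chromosome 7, 19013283 to 19023539; 3.34 ± 0.27). Rnase6 lost its call without 4 h replicate 2 or unstimulated replicate 4 (adjusted p = 0.0573 to 0.0729).

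Among the largest falls, most genes were low to begin with. Khdc1b had the highest level among them, 96.7, 76.1, 70.7 and 111 CPM before and 17.8, 2.38, 8.23 and 9.89 CPM after (Entrez 98582; mm10 chromosome 1, 21383556 to 21386384; -3.02 ± 0.30). Its treated libraries were uneven but all far below the others, and reads may be shared with its close relatives. Ryr1, a calcium release channel, had 11 counts before and 0 after, at least 3.61-fold lower. The ratios were 17.7 lower for the thrombin receptor gene F2rl3 (95% interval 2.80 to 738), 10.5 for Ttn (3.28 to 53.5), 9.51 for Kyat3 (2.95 to 48.8), 7.87 for Tspan32 (1.85 to 70.5), 7.54 for Oas3 (2.28 to 39.2) and 5.90 for Ms4a6d (1.72 to 31.3). Tyms-ps (-2.44 ± 0.57), a pseudogene whose reads may be those of Tyms, Clec10a (-2.34 ± 0.69), Fgd5 (-2.34 ± 0.58), Ramp3 (-2.33 ± 0.62) and Edaradd (-2.27 ± 0.72) followed. Bcl11b, a factor listed among the T cell markers, went from 27.6, 81.6, 64.8 and 93.0 CPM to 30.6, 7.13, 22.6 and 9.89 CPM (-1.83 ± 0.30), with unstimulated replicate 1 inside the treated range. The fitted change of F2rl3 of -3.71 ± 0.96 was -5.64 without 4 h replicate 3. Several low genes lost their calls with 1 library left out, for Ryr1 without 4 h replicate 1 (adjusted p = 0.0540); for Ms4a6d without 4 h replicates 3 or 4 or unstimulated replicate 4 (adjusted p = 0.0557 to 0.0685) and with DESeq2 (0.0653); for Clec10a without 4 h replicates 2 or 3 or unstimulated replicate 4 (adjusted p = 0.0546 to 0.0659); for Edaradd without 4 h replicates 1, 2 or 4 or unstimulated replicates 1 or 4 (adjusted p = 0.0517 to 0.112).

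The 4 h change in TGFBRII KO cells was used to read which of these changes were seen with the receptor gene removed, and it shares no library with the CIS KO change. Tgfbr2 was still counted there, at 229.7 ± 8.18 CPM unstimulated and 237 ± 38.8 CPM at 4 h (SD, n = 3), against 213 ± 26.6 CPM in unstimulated WT cells (SD, n = 4). The deleted part is not given, so these counts do not check that deletion either. In TGFBRII KO, 454 genes (4.66%) rose and 342 (3.51%) fell, together 796 (8.16%). The difference between the responses was tested as an interaction. It was called in 761 genes (7.8%), with the CIS KO response higher in 433 (4.44%) and lower in 328 (3.36%). Of the 781 genes that rose in CIS KO, the response differed in 338 (43.3%), and 62 also rose in TGFBRII KO (7.94% of the CIS KO list and 13.7% of the other) while 28 fell. Of the 623 that fell, the response differed in 165 (26.5%), and 93 also fell in TGFBRII KO (14.9% and 27.2%) while 24 rose. Both sets were chosen by the CIS KO values, which also enter the interaction, and this favours a called difference. The median TGFBRII KO change was 0.03 over the genes that rose in CIS KO and -0.18 over those that fell. Over all 9752 genes the changes of the genotypes had a Pearson correlation of 0.18 and a Spearman correlation of 0.20, given as a description, since genes are not replicates.

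Differences from TGFBRII KO were read list by list. Of the 11 pathway inhibitors, 0 were called in TGFBRII KO (2 higher and 1 lower at an unadjusted p under 0.05), and the CIS KO response was higher for 6: Ski by 2.77 ± 0.19, Skil by 1.78 ± 0.20, Smad7 by 1.82 ± 0.30, Pmepa1 by 3.77 ± 0.61, Ldlrad4 by 4.37 ± 0.72 and Tgif1 by 0.85 ± 0.18. The difference of Tgif1 was not called with DESeq2 (adjusted p = 0.0577). Over all autosomal genes the CIS KO response was higher in 4.44% and lower in 3.36%. Of the 17 residency genes tested, 7 had a higher response in CIS KO, among them Nt5e (5.15 ± 0.59) and Itga1 (1.95 ± 0.22). Itga1 fell in TGFBRII KO, from 110.1 ± 4.60 to 63.0 ± 19.1 CPM (SD, n = 3), where it rose in CIS KO. Abcg1 (2.57 ± 0.29), Bmf (2.00 ± 0.32), Ighm (3.09 ± 0.46), Ncr1 (-1.30 ± 0.17) and Lair1 (-1.23 ± 0.26) differed too. Among the largest differences were Foxa3 (5.83 ± 0.51), Slc4a11 (5.61 ± 1.43), Pip5k1b (6.17 ± 1.60) and Pacsin1 (8.40 ± 1.52) above 0, and Mfsd2a (-3.98 ± 0.75), H2ac23 (-3.04 ± 0.87), Akap1 (-3.03 ± 0.81), Mcrip2 (-2.65 ± 0.61), Cd300lf (-2.63 ± 0.70), Pdxk (-2.52 ± 0.41) and Lrp8 (-2.50 ± 0.49) below it. Several of these have few counts, and their fitted sizes depend on the prior. Akap1 itself did not change by test in CIS KO cells (-0.77 ± 0.56, adjusted p = 0.417). The calls of the CIS KO change were lost with DESeq2 for Mfsd2a (adjusted p = 0.143), Cd300lf (0.1015), Pip5k1b (0.0624) and Mcrip2 (0.0502). Each of these was also lost with some single libraries left out. The difference of Cd300lf was -4.02 without 4 h replicate 3. With 1 library left out, the test of the difference was lost for Slc4a11 without TGFBRII KO unstimulated replicate 2 (adjusted p = 0.179); for Pip5k1b without TGFBRII KO unstimulated replicate 3 (adjusted p = 0.0827); for H2ac23 without CIS KO 4 h replicates 1 or 2, CIS KO unstimulated replicate 1, TGFBRII KO 4 h replicate 2 or TGFBRII KO unstimulated replicate 3 (adjusted p = 0.0534 to 0.104); for Akap1 without CIS KO unstimulated replicate 4, TGFBRII KO 4 h replicate 2 or TGFBRII KO unstimulated replicate 3 (adjusted p = 0.0527 to 0.0674); for Cd300lf without CIS KO 4 h replicate 1 or CIS KO unstimulated replicate 2 (adjusted p = 0.0504 to 0.0545) and with DESeq2 (0.0611).

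Cholesterol genes fell in TGFBRII KO in 14 of 22 (median -0.64), and 0 of the CIS KO responses were lower and 1 was higher by test. The response of S phase and mitosis genes differed by the adjusted test in few members and at an unadjusted p under 0.05 in more. TGFBRII KO had 0 of 25 S phase genes called (median -0.11), with 1 higher and 3 lower at an unadjusted p under 0.05. Of 24 mitosis genes, 6 were called lower in TGFBRII KO (median -0.36). At an unadjusted p under 0.05, 14 mitosis genes were lower there and 0 higher. The CIS KO response was lower by test for 3 S phase genes, among them Mcm3 (-0.76 ± 0.17) and E2f1 (-0.84 ± 0.26), and for 1 mitosis gene, Mad2l1 (-1.07 ± 0.26). That is 3 of 25 and 1 of 24, against 3.36% of all autosomal genes. At an unadjusted p under 0.05 the CIS KO response was lower for 13 S phase and 7 mitosis genes. The share of all autosomal genes at that threshold was not counted, so nothing is concluded from these 2 counts. The test of E2f1 was lost in 10 of 14 fits that left out 1 library (adjusted p = 0.0503 to 0.169) and with DESeq2 (0.0675). Ribosome biogenesis differed most as a list. It rose in TGFBRII KO in 17 of 20 genes (median 0.89), and the CIS KO response was lower for 15, against 3.36% of all autosomal genes. Nolc1, a nucleolar chaperone, was at 163, 206, 226 and 252 CPM without and 196, 195, 177 and 161 CPM with TGFB1 in CIS KO, overlapping, and went from 149 ± 21.0 to 356 ± 59.3 CPM in TGFBRII KO (SD, n = 3; difference -1.50 ± 0.20).

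No gene was shown to respond differently in CIS KO and WT cells. The interaction called 0 of 9752 genes (0.0%) with edgeR and 0 with DESeq2, and 819 (8.4%) had an unadjusted p under 0.05. Without the low-count filter 12 were higher and 48 lower in CIS KO. The lowest adjusted p was 0.216, shared by Nop58 (0.73 ± 0.16) and Hbegf (2.43 ± 0.52). WT at 4 h had 2 libraries, of 297561 and 806473 counts, and the median standard error of the difference was 0.30 on the log2 scale against 0.19 for the CIS KO change alone. For the difference from TGFBRII KO, where 761 genes were called, it was 0.27. In WT, 681 genes (6.98%) rose and 491 (5.03%) fell. Of the 781 CIS KO rises, 405 were called in WT (51.9% of the CIS KO list and 59.5% of the WT list), 0 went the other way by test and 737 had the same sign. Of the 623 falls, 231 were called in WT (37.1% and 47.0%), 0 went the other way and 597 had the same sign. Over these genes the WT medians were 0.58 and -0.55, smaller than the CIS KO medians of 0.76 and -0.76, but the genes were chosen by the CIS KO values, which favours that order. The correlation over 9752 genes was 0.66 (Pearson) and 0.52 (Spearman), again a description.

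Side by side, the lists had similar medians in CIS KO and WT for pathway inhibitors (1.56 and 1.23) and cholesterol genes (-0.74 and -0.77). The S phase medians were -0.73 and -0.43 and those of mitosis -0.77 and -0.41, with 17 and 18 genes called in CIS KO and 4 and 4 in WT. At an unadjusted p under 0.05, 10 S phase and 12 mitosis genes were lower in WT, and 21 and 22 in CIS KO, with 0 higher in either. The WT change rests on 2 libraries at 4 h, so call counts of the genotypes are not alike in precision. None of these genes differed between the responses by the adjusted test, and 4 S phase and 7 mitosis genes were lower in CIS KO at an unadjusted p under 0.05. For Ifng the changes were 0.68 ± 0.14 in CIS KO and 0.07 ± 0.18 in WT (difference 0.61 ± 0.22), and for Ccr2 -0.51 ± 0.10 and -0.06 ± 0.12 (difference -0.45 ± 0.16). Neither difference passed the adjusted test, where the lowest adjusted p over all genes was 0.216. A different response of Ifng or Ccr2 in CIS KO is thus not shown.

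**Figure D4:**
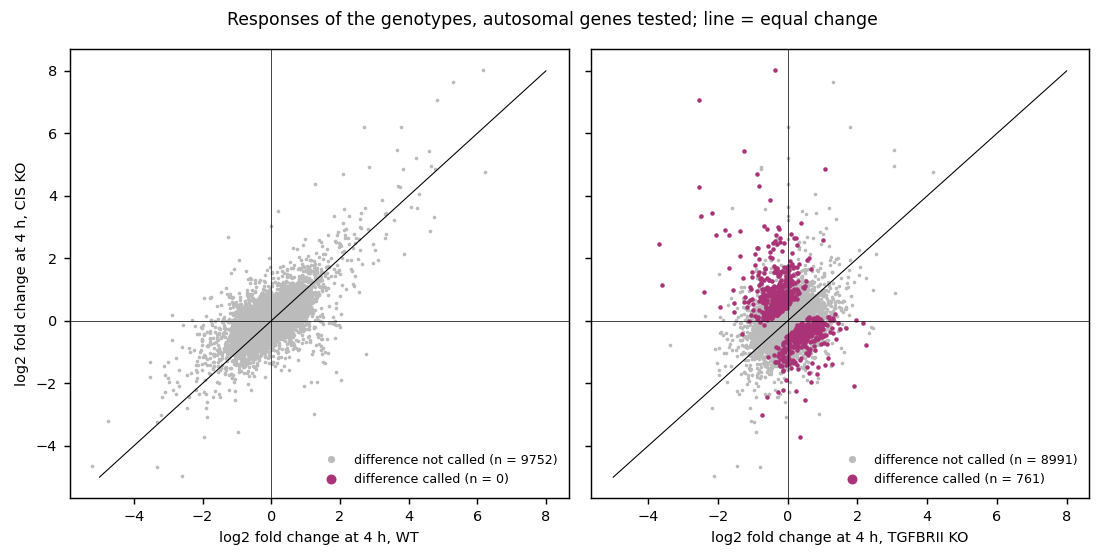
Log2 change at 4 h in CIS KO cells (vertical) against WT (left) and TGFBRII KO cells (right) for the 9752 autosomal genes tested, with the line of equal change. Purple marks the 761 genes whose response differed from TGFBRII KO, and 0 genes are marked against WT.

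Levels at 24 h of TGFB1 in CIS KO cells (n = 4), which share the unstimulated libraries with the 4 h change and are given without a test, showed which early values were kept. Pmepa1 stood at 448 ± 38.6 CPM, Ski at 448 ± 36.3 CPM and Tgfb3 at 138 ± 10.3 CPM, all far above the unstimulated values. Igha (153 ± 24.0 CPM), Pacsin1 (129.5 ± 25.6 CPM) and Itgae (56.0 ± 20.7 CPM) were higher than at 4 h. Other early rises were back near the unstimulated level, such as Tgfb1 at 17.6 ± 3.59 CPM, Rsad2 at 14.6 ± 4.22 CPM, Bcl2l11 at 467 ± 47.5 CPM and Ifng at 77.5 ± 10.5 CPM. Among early falls, Ncr1 was at 121 ± 13.7 CPM, between its unstimulated and 4 h levels, and Ccl9 at 4.58 ± 1.96 CPM, below both.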

How the data were processed

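RNA of 31 libraries of mouse NK cells was counted per Entrez gene, and the values are raw counts deposited by the authors. The submitters' processing notes name FastQC, Trimmomatic, Subread, Picard, SAMtools and featureCounts on mm10. Their versions, roles and order, the strand setting and the counting options were not given in the sources used, so reads of overlapping or near-identical genes can be misassigned. All 31 columns matched a label and 0 were left unmapped.

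Symbols and positions came from RefSeq (GRCm38.p6) for 25275 of 27179 identifiers and from GENCODE for 18. The remaining 1886 held 0.956% of counts. Genes that passed edgeR's filterByExpr on the 9 groups (10275) were scaled by TMM and fitted together with edgeR 4.0.16 in R 4.3.3, using its quasi-likelihood test with Benjamini-Hochberg adjustment over all of them. The 330 X-linked, 4 Y-linked and 13 mitochondrial genes tested are not described, nor are 176 genes without a symbol named, and some genes are not reported here. CPM values are TMM-scaled. Standard errors are the log2 change divided by the root of F. Ratios of genes with at most 3 counts in a group carry exact 95% intervals, and bounds use a floor of 3 counts over the group. Both cover counting error only. The script was tested on simulated data.

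Named genes were Cish, Tgfbr2, the 15 largest called changes in each direction without overlap and with at least 5 CPM, up to 4 members of each list by smallest p, all tested members of the inhibitor, ligand and SOCS lists, and up to 8 genes per direction for each difference. Klf10, Id3, Itgae, Ahr, Gata3, Tox, Eomes, Tbx21, Prf1, Runx1, Bcl11b, E2f1, Cdc6, Mcm5, Mcm7, Cdk1, Cdc20, Prc1, Hmgcs1, Idi1, Srebf1 and Nolc1 fall outside that rule and were picked with their values in view, like the genes of printed windows. The members and the 29 gene lists were chosen with earlier results of these data known. Alternatives tried were DESeq2 1.42.0, RLE factors, total counts alone, no or a stricter count filter, log2 total count as a covariate, only the libraries compared, the replicate number as a term, and each library left out.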

Additional observations from a re-analysis of the deposited data

Results flagged for a closer look

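In groups of 4 libraries, 108 groups of printed values were searched for a library whose gap to its nearest neighbour exceeded Dixon's 95% critical share of the group's range. Chance gives about 1 in 20 such groups, and 5 were found. In unstimulated CIS KO cells these were replicate 2 for Itgae (7.42 CPM), replicate 3 for Myh9 (640.1 CPM) and replicate 4 for Cdkn1b (91.6 CPM). At 4 h they were replicate 2 for Bcl2 (563 CPM) and replicate 1 for the number of genes with a count (12872). The high Itgae value lay nearest the treated range, but no treated library was below it.

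The responses of CIS KO and TGFBRII KO cells to 4 h of TGFB1 differed by the interaction test, higher in CIS KO for 433 and lower for 328 autosomal genes.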

How the results depend on the processing

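Of the 1404 genes called at 4 h in CIS KO cells, 0 changed sign in any alternative. The genes called higher and lower, 781 and 623, became 613 and 456 with DESeq2, 995 and 766 with total count as a covariate, and 621 to 708 and 429 to 548 with 1 library left out. Unstimulated replicate 4 gave the lowest counts. The difference from TGFBRII KO (433 higher and 328 lower) became 303 and 190 with DESeq2, 627 and 510 with total count as a covariate, 546 and 486 with only the libraries compared, and 313 to 412 and 242 to 319 with 1 library left out. The cause was not tested. The difference from WT stayed at 0 and 0 in every alternative but the one without a count filter, which called 12 and 48. The S phase list had 11 to 19 lower and the mitosis list 14 to 22, cholesterol genes 15 to 17, and inhibitors 8 to 9 higher. Lists with 1 to 3 called members often lost or gained 1. Of 144 called genes that the naming rule or the additions to it chose, 110 were called in every setting that could fit them.

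The replicate number as a block gave 596 higher and 443 lower genes at 4 h, 501 and 419 for the difference from TGFBRII KO, and 0 and 0 for that from WT. The numbers share no stated source. Deviations of same-numbered libraries correlated at -0.23, -0.02, -0.01 and -0.19. The highest value, 0.30, was between the deepest library of each group, 4 h replicate 1 (798891 counts) and unstimulated replicate 4 (711659 counts). These values do not decide whether equal numbers mark pairs.

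Depth limits weak genes: the median standard error was 0.55 for the 978 genes under a mean of 10 counts and 0.12 for the 2133 genes at 100 to 300.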

Other observations

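Of 9324 protein-coding autosomal genes tested, 765 were higher and 615 lower at 4 h in CIS KO cells. Of 212 long non-coding RNA genes, 9 were higher and 4 lower, and of 6 genes annotated as constant regions of antigen receptors, 3 were higher and 0 lower. Genes with a mean of 300 counts or more had 20 higher and 6 lower of 139, while those at 10 to 30 counts had 122 and 128 of 2344. These are counts only, with no test between classes.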
